A study of Homo sapiens with 12 samples.

Results

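Integrins and focal adhesion proteins were followed as a set of 35 genes in human hepatocellular carcinoma cells grown in a gel and on plastic. The set holds 12 integrin alpha chains, 7 integrin beta chains, 14 adapters and kinases of the focal adhesion and 2 discoidin domain receptors. Members were listed by gene name, by a rule that uses no measured value, though earlier results of these data were known when the list was made, and all 35 were found among the 58735 genes of the deposited tables. RNA was measured in 6 groups of 2 libraries each. They were Huh7 Inject-Embed, Huh7 Mix-Embed, Huh7 2D, HLF Inject-Embed, HLF Mix-Embed and HLF 2D. Both lines are labelled wild-type, no agent was added, and all groups shared a serum-containing medium. In Inject-Embed culture a cell suspension was injected into a Matrigel bed (4000 Huh7 or 2000 HLF cells per well). In Mix-Embed culture cells were stirred into Matrigel and layered on a set gel (20000 Huh7 or 10000 HLF cells per well). Embedded cells were collected on days 6 to 8 and flat cells on day 2 at about 90% confluence, so that culture, time and seeding number cannot be told apart.

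Integrins are paired alpha and beta chains that bind matrix proteins outside the cell and, through adapters, actin filaments inside it. Talin and kindlin bind the beta chain and switch the receptor on, and vinculin, paxillin, zyxin, tensin and the focal adhesion kinase gather around them in the plaque called a focal adhesion. Matrigel is a basement membrane extract rich in laminin and type IV collagen, both of which are integrin ligands. In liver, hepatocytes and tumour cells read their matrix largely through receptors that contain ITGB1.

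Library totals ran from 12325877 to 16041906 counts. Levels are given in FPKM, fragments per kilobase of gene scaled to library size, recomputed from the counts with totals adjusted by TMM, so that genes can be compared with each other. Fold changes are on the log2 scale, with the first group named over the second. A gene is called when its adjusted p is under 0.05 in edgeR's quasi-likelihood test, adjusted by Benjamini-Hochberg over the 19342 genes tested. The labels name biological replicates without saying how they were separated, so the p-values reach no further than the spread between such libraries. For each gene that spread was estimated over all 6 groups and drawn toward the spread of all genes. The median prior df was 36.3, against a residual df of 6. Of the members, 34 were tested. ITGA8, an alpha chain that pairs with ITGB1, had 1 count in 1 HLF Mix-Embed library and 0 in the other 11. Summed FPKM of 8 hepatocyte markers was 8405 to 8812 in Huh7 Inject-Embed, 10205 to 10346 in Huh7 Mix-Embed and 10726 to 11158 in Huh7 2D libraries. In HLF the sum was 11.2 to 12.4, 18.6 to 21.0 and 61.4 to 62.2 in the same cultures, with 4 of the 8 genes at 0 counts in Inject-Embed and 2 of 8 in each of the others, so the hepatic label is not seen in the markers of HLF. The 7 leukocyte markers summed to 133 to 134 FPKM in Huh7 Inject-Embed, 158 to 160 in Huh7 Mix-Embed and 182 to 191 in Huh7 2D libraries, nearly all of it LYZ, and to 1.64 to 4.50 FPKM in HLF libraries, while PTPRC, the pan-leukocyte marker, had at most 2 counts in any group. The 8 fibroblast or stellate markers summed to 15.4 to 15.5, 16.3 to 17.9 and 20.9 to 21.5 FPKM in Huh7 Inject-Embed, Mix-Embed and 2D libraries, and to 48.1 to 48.3, 51.5 to 52.0 and 46.5 to 47.2 FPKM in those of HLF. The 5 cholangiocyte markers summed to 142 to 144, 135 to 141 and 123 to 133 FPKM in Huh7, and to 13.1 to 13.8, 13.2 to 13.9 and 8.05 to 8.16 FPKM in HLF, in the same order. Endothelial markers summed to at most 1.90 FPKM in any library. The part of these marker shifts in the results below was not tested. In bulk libraries, fewer cells of a type and less RNA per cell cannot be told apart.

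Huh7 and HLF carried many of the matrix receptors at different levels. In flat culture 32 of 34 tested members (94.1%) differed between Huh7 and HLF, 9 higher and 23 lower in Huh7, against 77.2% of all genes tested. The median log2 fold change of the members was -1.30, against -0.02 for all genes. Of the beta chains, 6 of 7 were lower in Huh7, as were 11 of 14 adapters and kinases and both discoidin domain receptors. Of the 11 alpha chains tested, 6 were higher and 4 lower in Huh7. The comparison gave 27 members in Inject-Embed culture (5 higher, 22 lower in Huh7). That share of 79.4% is near the 77.1% of all genes called. In Mix-Embed culture it gave 30 members (7 higher, 23 lower), or 88.2%, with 76.9% of all genes called. Most genes differed between the lines, so the counts of members are read beside those shares. In Inject-Embed culture ITGB8 lost its call without Huh7 Inject-Embed replicate 1 (adjusted p = 0.196) or either HLF Inject-Embed library (0.116 and 0.0596). In Mix-Embed culture ITGA9 lost its call without any 1 of 9 libraries, LIMS1 without any 1 of 6, and TLN1 only without HLF Mix-Embed replicate 1. TLN1 and LIMS1 also changed sign there with library totals, at -0.0746 and -0.0652, where the median of all genes moved to -0.25 from -0.03.

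ITGA3, a laminin-binding alpha chain, showed the widest gap between the lines in flat culture. It stood at 0.972 and 0.948 FPKM in Huh7 2D libraries, against 131 and 137 FPKM in HLF 2D libraries. The log2 fold change was -7.12 ± 0.06 (SE; adjusted p = 1.7e-50). ITGA5, the alpha chain of the classical fibronectin receptor, had 1.11 and 1.15 FPKM in Huh7 2D libraries and 30.3 and 30.7 FPKM in HLF 2D libraries. ITGAV, the alpha chain shared by receptors for vitronectin and latent TGF-beta, had 11.7 and 11.8 FPKM in Huh7 2D libraries and 36.1 and 36.8 FPKM in HLF 2D libraries. The groups did not overlap for any of these 3 genes, and ITGA5 (-4.75 ± 0.08) and ITGAV (-1.64 ± 0.05) were both called. ITGA6, a laminin-binding chain, ran the other way, with 52.0 and 49.7 FPKM in Huh7 2D libraries and 26.2 and 26.6 FPKM in HLF 2D libraries (0.95 ± 0.05).

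The collagen-binding chains ITGA1 and ITGA2 were also higher in Huh7 2D than in HLF 2D. ITGA1 had 3.14 and 2.69 FPKM in Huh7 2D libraries and 1.41 and 1.20 FPKM in HLF 2D libraries. ITGA2 had 2.44 and 2.52 FPKM in Huh7 2D libraries and 1.22 and 1.45 FPKM in HLF 2D libraries. Their log2 fold changes were 1.16 ± 0.10 and 0.89 ± 0.14, and both were called. ITGB8, a partner of ITGAV, was higher in Huh7 2D (0.506 and 0.386 FPKM) than in HLF 2D (0.0695 and 0.0998 FPKM). ITGB1, the partner of most alpha chains, had 68.5 and 64.8 FPKM in Huh7 2D libraries and 177 and 176 FPKM in HLF 2D libraries. ITGB6, another partner of ITGAV, had 0.0142 and 0.0144 FPKM in Huh7 2D libraries, which rest on 2 counts, and 0.700 and 0.833 FPKM in HLF 2D libraries.

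Among adapters, TLN1 (talin-1) was close to equal in the lines and VCL (vinculin) was not. TLN1 had 45.9 and 47.6 FPKM in Huh7 2D libraries and 47.1 and 48.9 FPKM in HLF 2D libraries. Its groups overlapped and its log2 fold change of -0.04 ± 0.04 was not called (adjusted p = 0.425). VCL, which ties talin to actin, had 11.05 and 10.19 FPKM in Huh7 2D libraries and 85.4 and 83.8 FPKM in HLF 2D libraries, a log2 fold change of -2.99 ± 0.05. PTK2, the focal adhesion kinase, had 13.1 and 12.6 FPKM in Huh7 2D libraries and 14.8 and 15.3 FPKM in HLF 2D libraries. Its difference of -0.22 ± 0.05 was small and called (adjusted p = 0.00013). PXN, the paxillin scaffold, and BCAR1, the p130Cas scaffold, followed VCL at -2.66 ± 0.06 and -2.94 ± 0.06. The exceptions were FERMT1, an epithelial kindlin, at 5.09 ± 0.22, and TNS1 (tensin-1), at 1.03 ± 0.20.

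The remaining beta chains, ITGB2, ITGB3, ITGB4 and ITGB5, were lower in Huh7 2D, at log2 fold changes of -4.19 to -0.17. ITGB2 belongs to leukocyte integrins and rested on 4 to 67 counts a group. Of the lowly counted alpha chains, ITGA10 was lower in Huh7 2D (-5.20 ± 0.48), ITGA7 (1.69 ± 0.23), ITGA4 (1.49 ± 0.60) and ITGA9 (1.60 ± 0.67) were higher, and ITGA11 was not called (adjusted p = 0.0593). ITGA4, ITGA9, ITGB5 and LIMS1 lost their call without Huh7 2D replicate 1 (adjusted p = 0.107, 0.211, 0.107 and 0.113). ITGA4 also lost it without Huh7 2D replicate 2 (0.0524) or HLF 2D replicate 2 (0.286). ITGA9 also lost it without HLF 2D replicate 1 (0.0767) or replicate 2 (0.128), and ITGB5 without HLF 2D replicate 1 (0.056). The other 28 calls held without any 1 library.

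**Figure D1:**
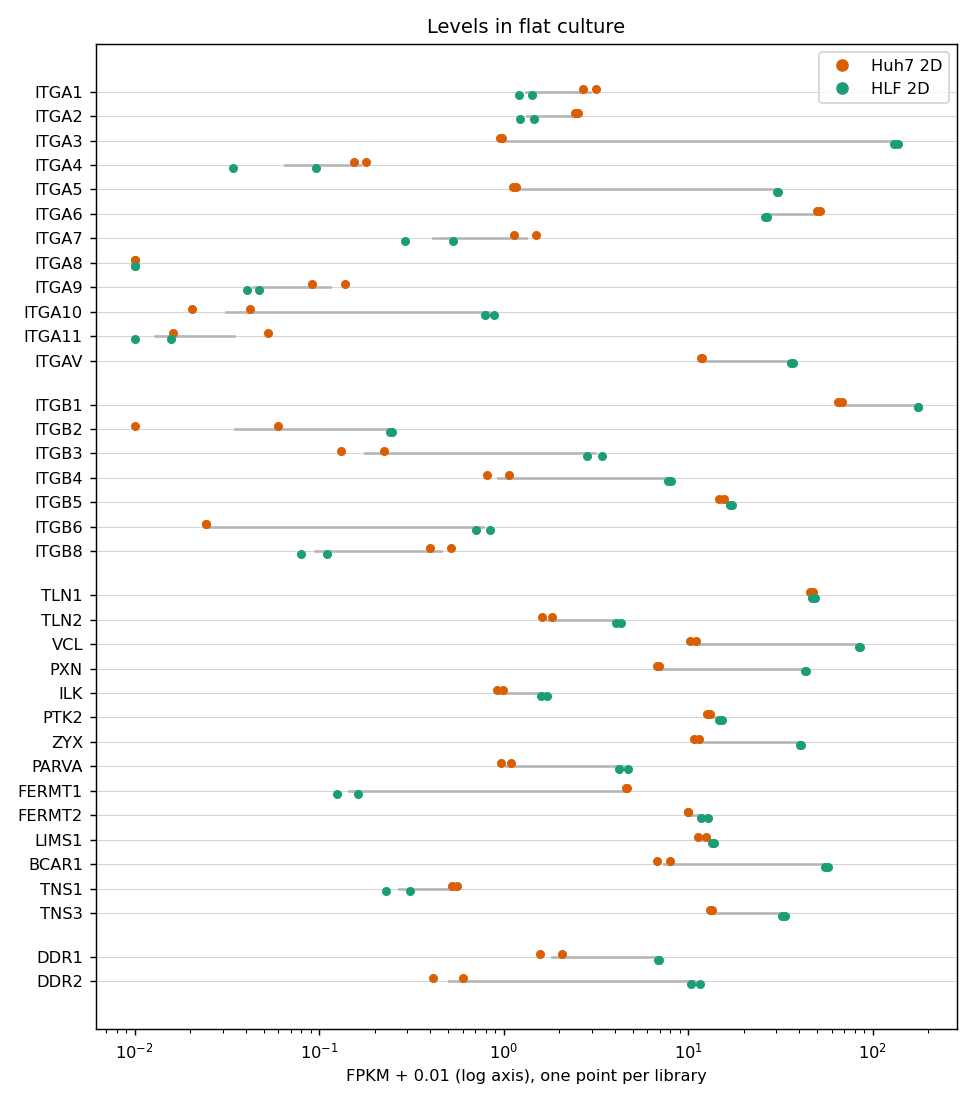
Level of each member in the 2D libraries, on a log axis of FPKM + 0.01, with 2 points per line (Huh7 in orange, HLF in green) and a grey bar between the means. ITGA3 spans the widest gap, at 0.972 and 0.948 FPKM in Huh7 and 131 and 137 FPKM in HLF, while the TLN1 points of the lines lie together.

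The make-up of the integrin transcripts differed between the lines. Huh7 alpha chain transcripts were mostly ITGA6, which made up on average 70.7% in Inject-Embed, 67.7% in Mix-Embed and 70.9% in 2D culture. In HLF the share of ITGA6 was 10.2%, 9.88% and 11.4% in the same cultures. ITGA3 led in HLF, with 56.2%, 57.4% and 57.9%, and held 4.45%, 4.07% and 1.34% in Huh7. Both are laminin-binding chains. Among beta chains, ITGB1 made up 77.3%, 75.5% and 79.9% in Huh7 and 83.2%, 81.5% and 85.8% in HLF, and ITGB5 held 19.98%, 21.5% and 18.2% in Huh7. Shares are means of 2 libraries and describe transcripts, not receptors on the surface.

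Summed over the chains, integrin transcripts were lower in embedded Huh7 and higher in embedded HLF, except for beta chains in HLF Mix-Embed culture. The alpha chain sum in Huh7 was 55.6 and 58.8 FPKM in Inject-Embed and 55.7 and 54.8 FPKM in Mix-Embed libraries, against 72.8 and 70.5 FPKM in 2D libraries. In HLF it was 261 and 267 FPKM in Inject-Embed and 262 and 266 FPKM in Mix-Embed libraries, against 228 and 235 FPKM in 2D libraries. In neither line did the alpha chain sums of embedded libraries overlap those of 2D libraries. The beta chain sum in Huh7 was 64.6 and 68.2 FPKM in Inject-Embed and 67.9 and 67.2 FPKM in Mix-Embed libraries. In Huh7 2D libraries it was 84.7 and 82.2 FPKM. In HLF it was 229 and 231 FPKM in Inject-Embed libraries, above 205.6 and 205.7 FPKM in 2D libraries. The HLF Mix-Embed libraries, at 211 and 204 FPKM, lay on both sides of the 2D libraries. No test was run on the sums. ITGA6 is the largest part of the alpha chain sum in Huh7 and ITGA3 in HLF. In HLF, ITGA3 averaged 134 FPKM in 2D, 148 FPKM in Inject-Embed and 152 FPKM in Mix-Embed libraries. ITGAV averaged 36.5, 48.8 and 49.8 FPKM, and ITGA6 26.4, 26.9 and 26.1 FPKM, in the same order.

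**Figure D2:**
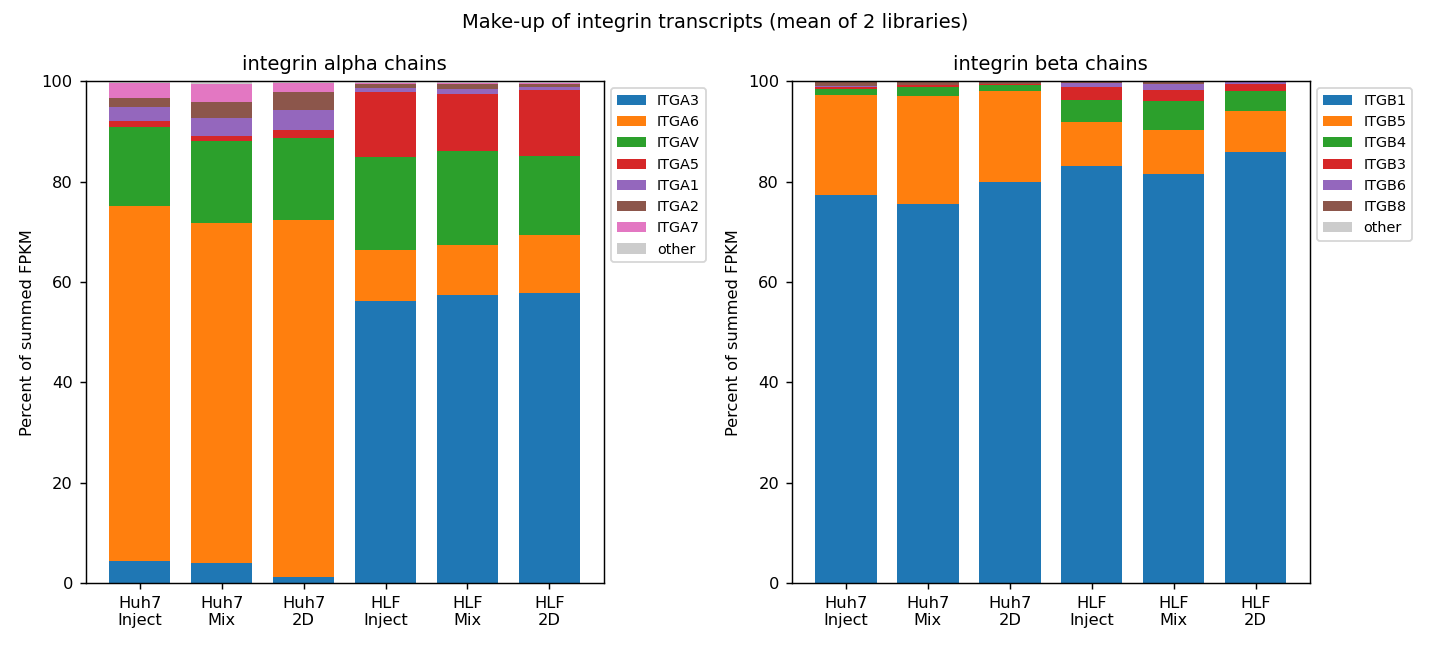
Share of each alpha chain (left) and beta chain (right) in the summed FPKM of its kind, as the mean of 2 libraries per group. ITGA6 fills 67.7% to 70.9% of the Huh7 alpha bars, ITGA3 fills 56.2% to 57.9% of the HLF alpha bars, and ITGB1 leads every beta bar.

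In HLF cells the receptors and the adapters moved in opposite directions in gel. In Inject-Embed over 2D culture 22 of 34 members were called, 13 higher and 9 lower, against 17.9% of all genes (9.09% higher and 8.86% lower). The 13 that rose were 6 of 11 alpha chains (ITGA1, ITGA2, ITGA3, ITGA5, ITGA11, ITGAV), 6 of 7 beta chains (ITGB1, ITGB3, ITGB4, ITGB5, ITGB6, ITGB8) and DDR1. The 9 that fell were all adapters or kinases, of the 14 measured: TLN1, TLN2, VCL, PXN, PTK2, ZYX, FERMT2, LIMS1 and TNS3. No integrin chain was called lower and no adapter higher, in the reported fit and in every alternative run. The median log2 fold change was 0.39 for the 18 integrin chains and -0.24 for the adapters, against 0 for all genes. Well measured genes pass more often, and among genes averaging at least 5 CPM the share called was 74.1% for 27 members, against 25.5% for all genes.

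Of these 22 calls, 12 held without any 1 library, and the rest were small changes or low counts. Without HLF Inject-Embed replicate 1, FERMT2 (adjusted p = 0.0517), ITGB1 (0.142), LIMS1 (0.0993), PTK2 (0.131) and PXN (0.252) were not called. Without Inject-Embed replicate 2, FERMT2 (0.264), ITGA3 (0.0692), ITGA5 (0.327), ITGB1 (0.157), ITGB4 (0.0532), ITGB5 (0.0854) and PTK2 (0.0618) were not called. Without HLF 2D replicate 1 this held for ITGA3 (0.137), ITGA5 (0.176), ITGA11 (0.148), ITGB1 (0.158), LIMS1 (0.0525) and PXN (0.0695). Without HLF 2D replicate 2 it held for FERMT2 (0.336), ITGA5 (0.105), ITGB1 (0.137), PTK2 (0.156) and PXN (0.0579). With library totals in place of TMM, 14 members were higher and 7 lower, while the share of higher calls among all genes moved from 50.6% to 63.3%.

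In Mix-Embed HLF cells integrin chains were again called higher and adapters lower. Over 2D, 21 members were called, 12 higher and 9 lower, against 29% of all genes (14.4% higher and 14.6% lower). Those that rose were 6 alpha chains (ITGA1, ITGA2, ITGA3, ITGA7, ITGA11, ITGAV), 4 beta chains (ITGB3, ITGB4, ITGB6, ITGB8) and both DDR1 and DDR2. The 9 that fell were TLN1, TLN2, VCL, PXN, PTK2, ZYX, FERMT2, LIMS1 and TNS3. Both HLF comparisons share the HLF 2D libraries. The median was 0.60 for integrin chains and -0.27 for adapters, against 0.00 for all genes, and 70.4% of the 27 well measured members were called, against 40% of such genes. With library totals 14 members were higher and 7 lower, 1 adapter (BCAR1, 0.18) among the higher, as the share of higher calls among all genes moved from 49.8% to 62.4%. Of the calls, 15 held without any 1 library. DDR2 (adjusted p = 0.0544), ITGA7 (0.427) and ITGA11 (0.091) lost theirs without HLF 2D replicate 1, and TLN2 (0.188) and TNS3 (0.0899) without HLF 2D replicate 2. Without Mix-Embed replicate 1, ITGA7 (0.0907), PXN (0.0708), TLN2 (0.0792) and TNS3 (0.0548) were lost, and without Mix-Embed replicate 2, ITGA7 (0.0596) and TLN2 (0.0984).

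**Figure D3:**
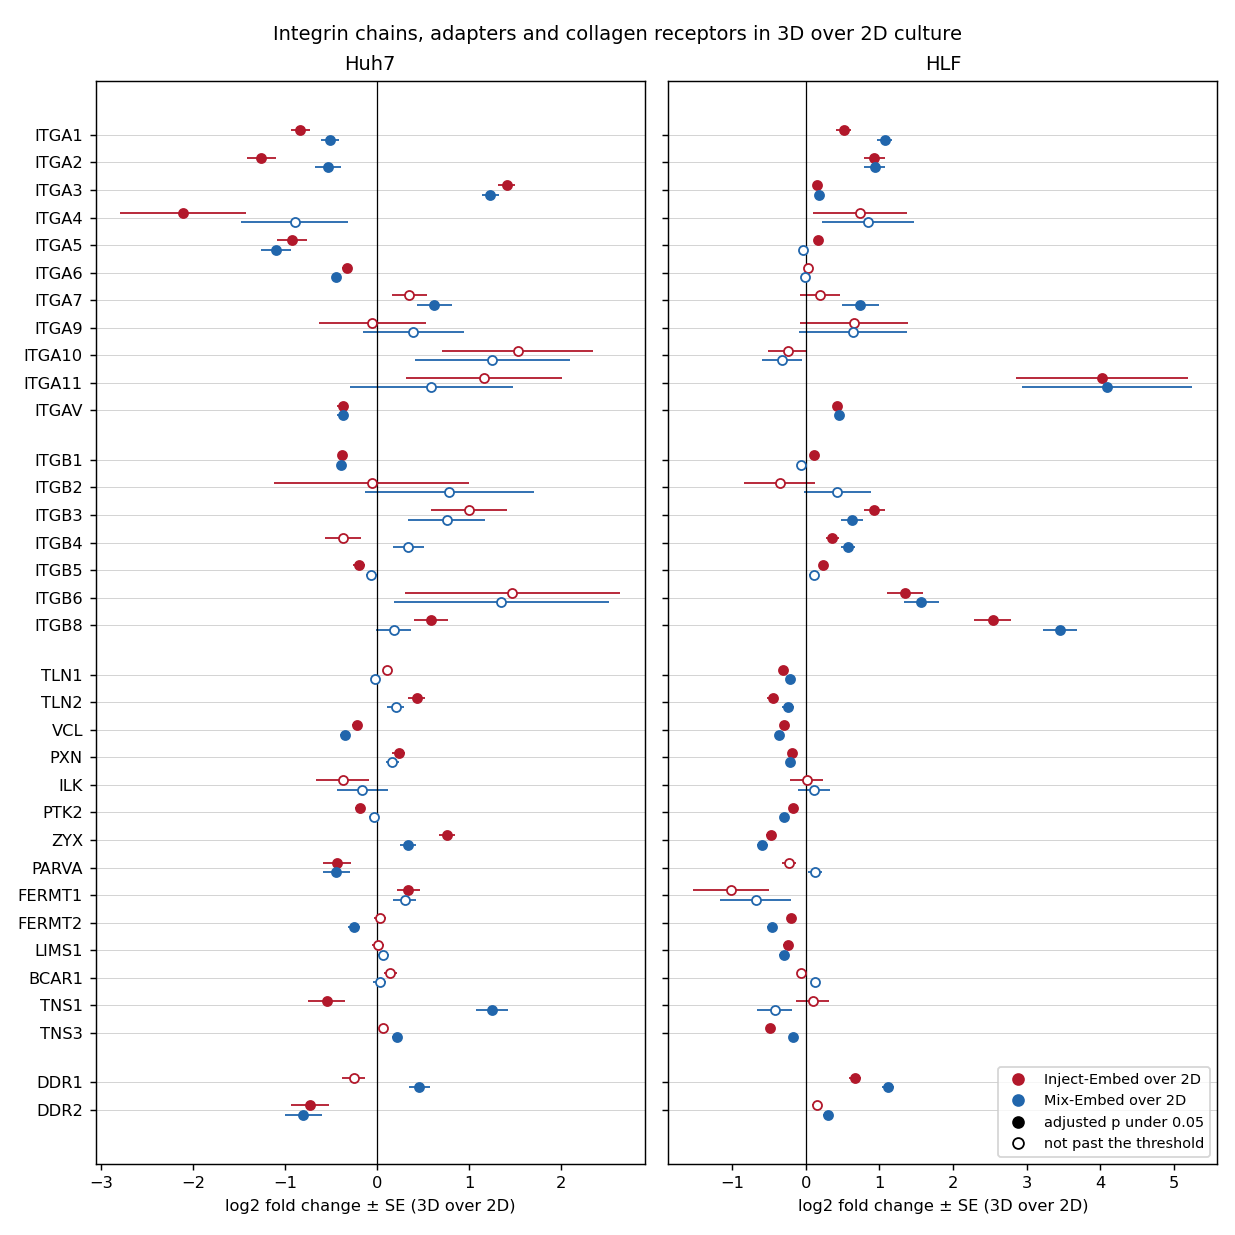
Log2 fold change ± SE of the 34 tested members in Inject-Embed (red) and Mix-Embed (blue) over 2D culture, for Huh7 on the left and HLF on the right, each panel with its own x axis and members grouped by role. Filled points have an adjusted p under 0.05. In HLF the filled integrin points lie right of 0 and the filled adapter points left of it, which in Huh7 they do not.

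ITGB8 had the largest change in HLF apart from ITGA11. It stood at 0.479 and 0.509 FPKM in HLF Inject-Embed and 0.838 and 1.02 FPKM in HLF Mix-Embed libraries, against 0.0695 and 0.0998 FPKM in HLF 2D libraries. Every embedded library was above both flat ones, and the log2 fold changes were 2.54 ± 0.25 (adjusted p = 5.93e-11) and 3.46 ± 0.23 (1.96e-16). ITGB6 stood at 2.02 and 1.90 FPKM in Inject-Embed and 2.77 and 1.81 FPKM in Mix-Embed libraries, against 0.700 and 0.833 FPKM in 2D libraries. Again no embedded library overlapped the flat ones (1.35 ± 0.24 and 1.57 ± 0.24). ITGB6 and ITGB8 both pair with ITGAV, and these receptors are known for activating latent TGF-beta.

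ITGAV itself had 48.7 and 48.9 FPKM in HLF Inject-Embed and 52.2 and 47.3 FPKM in HLF Mix-Embed libraries, against 36.1 and 36.8 FPKM in HLF 2D libraries. Both embedded groups lay above the 2D libraries and overlapped each other, and the log2 fold changes over 2D were 0.42 ± 0.05 (adjusted p = 4.78e-09) and 0.45 ± 0.05 (4.47e-10). ITGB3, the ITGAV partner of the classical vitronectin receptor, rose by 0.93 ± 0.14 and 0.62 ± 0.15. ITGB5, a further ITGAV partner, rose in Inject-Embed (0.24 ± 0.06) and was not called in Mix-Embed culture. In GENCODE, exons of ITGB3 and ITGB6 share 33.2% and 16.7% of their bases with other annotated genes on the same strand. Those exons hold 6829 and 5785 bases, against deposited gene lengths of 4394 and 4687. Whether the shared bases were counted is therefore not known, and if they were, part of the counts could belong to those genes.

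ITGA1, ITGA2 and DDR1, which bind collagens, rose in both embedded cultures of HLF. ITGA1 had 1.92 and 1.81 FPKM in Inject-Embed and 2.67 and 2.82 FPKM in Mix-Embed libraries, against 1.41 and 1.20 FPKM in 2D libraries. ITGA2 had 2.25 and 2.84 FPKM in Inject-Embed and 2.51 and 2.60 FPKM in Mix-Embed libraries, against 1.22 and 1.45 FPKM in 2D libraries. DDR1, a receptor kinase that binds collagens, type IV among them, had 10.8 and 10.9 FPKM in Inject-Embed and 14.1 and 15.6 FPKM in Mix-Embed libraries, against 6.91 and 6.83 FPKM in 2D libraries. For each of the 3, all embedded libraries exceeded both flat ones. The log2 fold changes in Inject-Embed and Mix-Embed culture were 0.52 ± 0.10 and 1.07 ± 0.10 for ITGA1, 0.93 ± 0.14 and 0.94 ± 0.14 for ITGA2, and 0.66 ± 0.08 and 1.12 ± 0.08 for DDR1. DDR2, a receptor for fibrillar collagens, rose in Mix-Embed culture (0.31 ± 0.07), and its Inject-Embed value of 0.15 was not called. ITGA11, a further collagen-binding chain, had 20 counts in Inject-Embed and 21 in Mix-Embed, against 1 in 2D libraries. The count ratios were 20.4 (95% counting interval 3.27 to 846) and 21.4 (3.44 to 883), which cover counting error only. ITGA10, also collagen-binding, averaged 0.695 FPKM in Inject-Embed and 0.661 FPKM in Mix-Embed, against 0.825 FPKM in 2D libraries, and was not called in either.

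The abundant laminin and fibronectin receptors of HLF changed little. ITGA3 had 147 and 149 FPKM in Inject-Embed and 147 and 156 FPKM in Mix-Embed libraries, against 131 and 137 FPKM in 2D libraries. These are log2 fold changes of 0.15 ± 0.04 and 0.18 ± 0.04. ITGA5 had 33.1 and 35.5 FPKM in Inject-Embed and 29.3 and 30.1 FPKM in Mix-Embed libraries, against 30.3 and 30.7 FPKM in 2D libraries, and was called in the first alone (0.17 ± 0.06). ITGB1 had 191 and 192 FPKM in Inject-Embed and 173 and 165 FPKM in Mix-Embed libraries, against 177 and 176 FPKM in 2D libraries. It was above the flat libraries in Inject-Embed (0.12 ± 0.04, adjusted p = 0.0442) and below them in Mix-Embed culture, where the change was not called (-0.06). ITGA6 was not called in either culture, at 0.03 and -0.02. ITGB4, the ITGA6 partner of hemidesmosomes, rose by 0.36 ± 0.09 and 0.57 ± 0.09.

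The adapters of HLF that fell changed by less than 1 log2 unit. TLN1 had 38.2 and 38.9 FPKM in Inject-Embed and 40.4 and 42.1 FPKM in Mix-Embed libraries, against 47.1 and 48.9 FPKM in 2D libraries. VCL had 68.8 and 69.3 FPKM in Inject-Embed and 66.7 and 64.3 FPKM in Mix-Embed libraries, against 85.4 and 83.8 FPKM in 2D libraries. PTK2 had 13.2 and 13.5 FPKM in Inject-Embed and 12.3 and 12.2 FPKM in Mix-Embed libraries, against 14.8 and 15.3 FPKM in 2D libraries. All embedded libraries lay below both flat ones for each of these. In Inject-Embed and Mix-Embed culture the log2 fold changes were -0.32 ± 0.04 and -0.22 ± 0.04 for TLN1, -0.29 ± 0.04 and -0.37 ± 0.04 for VCL, and -0.18 ± 0.05 and -0.30 ± 0.05 for PTK2. ZYX (zyxin), which marks mature adhesions and stress fibres, was at -0.48 ± 0.07 and -0.59 ± 0.07. The kindlin FERMT2 (-0.20 and -0.47), the PINCH adapter LIMS1 (-0.24 and -0.30), TLN2 (-0.45 and -0.25), PXN (-0.19 and -0.22) and TNS3 (-0.49 and -0.18) were also lower in both cultures.

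ILK, PARVA, BCAR1, FERMT1 and TNS1 were not called over 2D in either HLF culture. ILK, the pseudokinase that joins PINCH and parvin, is uncertain, because 78.5% of its exon bases lie in exons of other genes, chiefly TAF10 on the other strand, and the strand setting of the counting is not given in the sources used here. PXN shares 27.2% of its exon bases with other genes, ITGA4 26.4%, ITGA1 13.2% and VCL 11.1%, chiefly on the other strand. For ITGA1 part of the share lies on the same strand, in RPL17P21. BCAR1 shares 8.8%, chiefly with a gene on the same strand. For ITGA4 the GENCODE exons hold 10654 bases, against a deposited length of 7901, so its share may not apply to the counted bases. FERMT1 rested on 11 to 23 counts a group in HLF. TNS1 had 0.295 and 0.262 FPKM in HLF Inject-Embed and 0.252 and 0.142 FPKM in HLF Mix-Embed libraries, against 0.301 and 0.221 FPKM in HLF 2D libraries, which overlapped both.

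In Huh7 cells integrin chains fell more often than they rose, and adapters went both ways. In Inject-Embed over 2D culture 19 of 34 members were called, 6 higher and 13 lower, against 29.9% of all genes (13.2% higher and 16.7% lower). The 13 that fell held 6 of 11 alpha chains (ITGA1, ITGA2, ITGA4, ITGA5, ITGA6, ITGAV), the beta chains ITGB1 and ITGB5, the adapters VCL, PTK2, PARVA and TNS1, and DDR2. The 6 that rose were ITGA3, ITGB8, TLN2, PXN, ZYX and FERMT1. The median was -0.13 for integrin chains and 0.05 for adapters, against -0.01 for all genes. Among well measured genes 66.7% of the members were called, against 42.2% of all. Of the calls, 9 held without any 1 library. Without Huh7 Inject-Embed replicate 1, ITGA4 (adjusted p = 0.213), ITGB5 (0.095), ITGB8 (0.144), PTK2 (0.0517), PXN (0.402), PARVA (0.18), FERMT1 (0.168) and TNS1 (0.136) were not called, while ITGB4 was newly called, giving 12 members. Without Inject-Embed replicate 2 this held for ITGB5 (0.0657), FERMT1 (0.0849) and TNS1 (0.11). Without Huh7 2D replicate 1 it held for DDR2 (0.247), FERMT1 (0.136), ITGA4 (0.0875), TNS1 (0.131) and VCL (0.0509), and without replicate 2 for FERMT1 (0.0989), ITGB5 (0.147), ITGB8 (0.18), PARVA (0.159) and TNS1 (0.0596). ITGB5 also missed the threshold without HLF 2D replicate 2 or either HLF Inject-Embed library (0.0578 to 0.0587).

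In Mix-Embed over 2D culture of Huh7, 16 members were called, 6 higher and 10 lower, against 21.7% of all genes (11.2% higher and 10.6% lower). ITGA1, ITGA2, ITGA5, ITGA6, ITGAV, ITGB1, VCL, PARVA, FERMT2 and DDR2 fell, and ITGA3, ITGA7, ZYX, TNS1, TNS3 and DDR1 rose. Among well measured genes 59.3% of the members were called, against 31.7% of all. The median was 0.26 for integrin chains, of which 6 fell and 2 rose, and 0.04 for adapters, against 0.00 for all genes. That median counts chains with very few reads, such as ITGA10 with 9 counts in Mix-Embed and 4 in 2D libraries. Without Mix-Embed replicate 2, DDR1 (adjusted p = 0.173), DDR2 (0.0709), ITGA2 (0.0937), ITGA7 (0.0608), PARVA (0.647) and ZYX (0.172) were not called, which left 10 members. Without Mix-Embed replicate 1 ITGA7 (0.0702) was lost, without Huh7 2D replicate 1 DDR2 (0.197) and ITGA7 (0.203), and without Huh7 2D replicate 2 DDR1 (0.149) and PARVA (0.173). The 2 Huh7 comparisons share the Huh7 2D libraries.

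ITGA3 rose in both embedded cultures of Huh7 and had the largest called rise in Inject-Embed culture. It stood at 2.502 and 2.593 FPKM in Huh7 Inject-Embed and 2.34 and 2.16 FPKM in Huh7 Mix-Embed libraries, against 0.972 and 0.948 FPKM in Huh7 2D libraries. Every embedded library was more than 1 log2 unit above the flat ones, with log2 fold changes of 1.41 ± 0.09 (adjusted p = 7.69e-17) and 1.23 ± 0.09 (2.01e-14). Even so, ITGA3 in embedded Huh7 remained far below HLF. Its log2 fold change of Huh7 over HLF was -5.86 ± 0.06 in Inject-Embed and -6.07 ± 0.06 in Mix-Embed culture.

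ITGB1, ITGAV, ITGA5 and ITGA6 fell in both embedded cultures of Huh7. ITGB1 had 49.4 and 53.3 FPKM in Huh7 Inject-Embed and 51.5 and 50.4 FPKM in Huh7 Mix-Embed libraries, against 68.5 and 64.8 FPKM in Huh7 2D libraries. ITGAV had 9.01 and 9.09 FPKM in Inject-Embed and 9.18 and 8.90 FPKM in Mix-Embed libraries, against 11.7 and 11.8 FPKM in 2D libraries. ITGA5 had 0.719 and 0.460 FPKM in Inject-Embed and 0.506 and 0.555 FPKM in Mix-Embed libraries, against 1.11 and 1.15 FPKM in 2D libraries. For all 3 genes the embedded libraries lay below both 2D libraries, while the Inject-Embed and Mix-Embed libraries overlapped. The log2 fold changes in Inject-Embed and Mix-Embed culture were -0.38 ± 0.04 and -0.39 ± 0.04 for ITGB1, -0.37 ± 0.06 and -0.38 ± 0.06 for ITGAV, and -0.92 ± 0.16 and -1.10 ± 0.16 for ITGA5. ITGA6, the leading alpha chain of Huh7, fell by 0.33 and 0.44 on the log2 scale. ITGB5, the second beta chain of Huh7 by level, averaged 13.3 FPKM in Inject-Embed and 14.5 FPKM in Mix-Embed, against 15.2 FPKM in 2D libraries. It was called in Inject-Embed culture (-0.20 ± 0.06), a call lost without any 1 of 6 libraries, and not in Mix-Embed culture.

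Of the 4 collagen-binding chains, ITGA1 and ITGA2 fell in embedded Huh7. ITGA10 had 10 counts in Inject-Embed and 9 in Mix-Embed, against 4 in 2D libraries, and ITGA11 had 15 and 11, against 8, and neither was called. ITGA1 had 1.49 and 1.78 FPKM in Inject-Embed and 2.18 and 1.88 FPKM in Mix-Embed libraries, against 3.14 and 2.69 FPKM in 2D libraries. ITGA2 had 1.13 and 0.935 FPKM in Inject-Embed and 1.84 and 1.58 FPKM in Mix-Embed libraries, against 2.44 and 2.52 FPKM in 2D libraries. Both were lower in each embedded library than in each flat one. The log2 fold changes were -0.84 ± 0.10 and -0.52 ± 0.10 for ITGA1 and -1.26 ± 0.15 and -0.53 ± 0.14 for ITGA2. DDR1 had 1.58 and 1.44 FPKM in Inject-Embed and 2.22 and 2.77 FPKM in Mix-Embed libraries, against 2.07 and 1.56 FPKM in 2D libraries. The Inject-Embed and 2D libraries of DDR1 overlapped and that change was not called, while Mix-Embed was called higher (0.46 ± 0.11). DDR2 fell by 0.73 and 0.80 on the log2 scale, at 80 to 159 counts a group.

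TNS1, a tensin that ties integrins to actin, differed between the 2 ways of embedding Huh7 cells. It had 0.363 and 0.365 FPKM in Inject-Embed and 1.21 and 1.32 FPKM in Mix-Embed libraries, against 0.549 and 0.517 FPKM in 2D libraries. The 3 groups did not overlap. The log2 fold change was -0.55 ± 0.20 for Inject-Embed and 1.246 ± 0.17 for Mix-Embed over 2D. ITGB8 had 0.714 and 0.623 FPKM in Inject-Embed and 0.487 and 0.524 FPKM in Mix-Embed libraries, against 0.506 and 0.386 FPKM in 2D libraries. It was called in Inject-Embed (0.59 ± 0.19) and overlapped the flat libraries in Mix-Embed culture. ITGB6 had 2 to 5 counts a group in Huh7 (0.0484 and 0.0363 FPKM in Inject-Embed, 0.0743 and 0 FPKM in Mix-Embed) and was not called.

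Among Huh7 adapters, TLN1 had 51.3 and 49.0 FPKM in Inject-Embed and 45.5 and 46.3 FPKM in Mix-Embed libraries, against 45.9 and 47.6 FPKM in 2D libraries, and was not called over 2D. VCL had 8.99 and 9.23 FPKM in Inject-Embed and 8.16 and 8.47 FPKM in Mix-Embed libraries, against 11.05 and 10.19 FPKM in 2D libraries. PTK2 had 11.2 and 11.4 FPKM in Inject-Embed and 12.8 and 12.3 FPKM in Mix-Embed libraries, against 13.1 and 12.6 FPKM in 2D libraries. VCL was below the flat libraries in both cultures (-0.22 ± 0.05 and -0.35 ± 0.05), and PTK2 in Inject-Embed alone (-0.19 ± 0.05), with Mix-Embed and 2D libraries overlapping. ZYX rose by 0.75 ± 0.09 and 0.34 ± 0.09. PARVA, the parvin of the ILK complex, fell by 0.44 in both. LIMS1, BCAR1 and ILK were not called over 2D in either culture of Huh7.

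**Figure D4:**
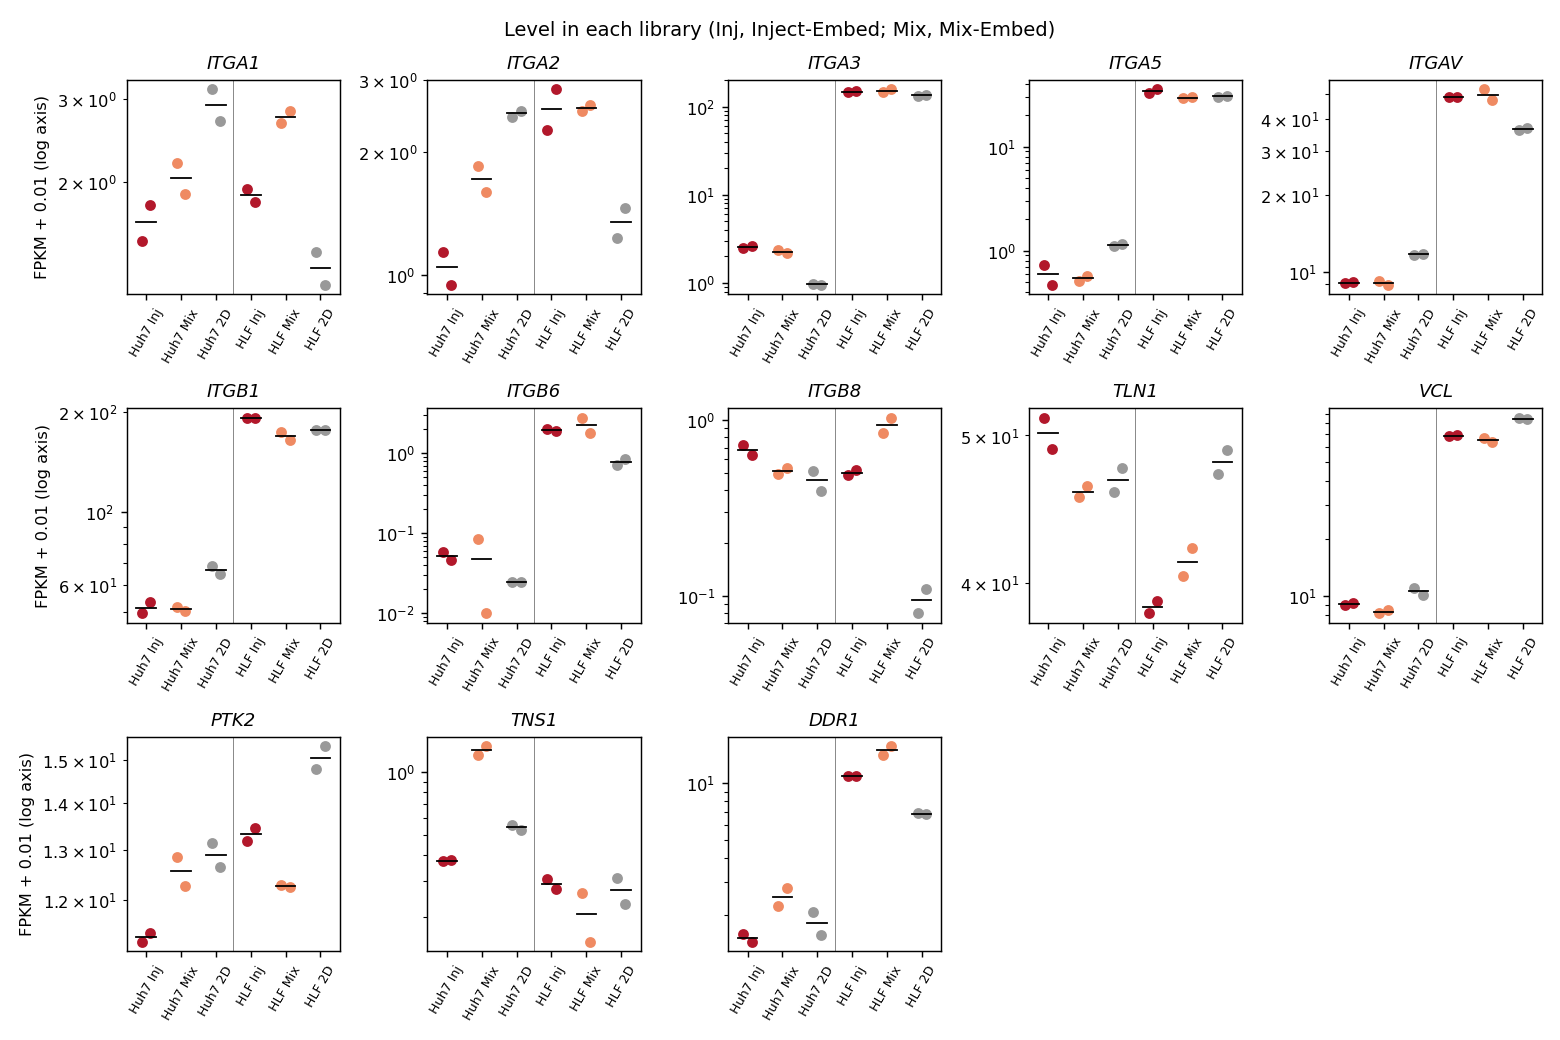
Level in each library of the 8 members with a log2 fold change of at least 1 in a called culture comparison and at least 5 CPM, and of ITGB1, ITGAV, TLN1, VCL and PTK2, on log axes of FPKM + 0.01 that differ between panels. Points are libraries and black lines group means. ITGA1, ITGA2 and ITGAV lie below 2D in embedded Huh7 and above 2D in embedded HLF.

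The response to the gel was tested for a difference between the lines. For Inject-Embed over 2D, 19 of 34 members differed, 7 higher and 12 lower in Huh7 than in HLF, against 24.8% of all genes. For Mix-Embed over 2D, 19 differed, 9 higher and 10 lower, against 20.4% of all genes. Well measured genes pass more often, and the share among all genes averaging at least 5 CPM is not given for these tests. In Inject-Embed culture 10 integrin chains had a lower response in Huh7 and 1, ITGA3, a higher one, while 6 adapters had a higher response and 0 a lower one. In Mix-Embed culture 7 integrin chains were lower and 1, again ITGA3, higher, with 8 adapters higher and 1 (PARVA) lower. In each comparison 15 of the 19 calls held without any 1 library. In Inject-Embed culture DDR2 and LIMS1 reached an adjusted p of 0.108 and 0.194 without Huh7 2D replicate 1, ITGA4 0.136 without Huh7 Inject-Embed replicate 1 and ITGB4 0.171 without Huh7 Inject-Embed replicate 2. In Mix-Embed culture PARVA reached 0.388 without Huh7 Mix-Embed replicate 2, TLN1 0.179 without HLF Mix-Embed replicate 1, PTK2 0.0758 without HLF 2D replicate 2 and TLN2 0.0552 without Huh7 2D replicate 1. Those are the highest values for each gene. With library totals the share of higher calls among all genes in Mix-Embed culture moved from 49.9% to 37.1%, and 7 members were higher and 11 lower.

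Of the 35 members, 4 were called in opposite directions in the lines in both embedded cultures. The share of all tested genes that did so was not counted, so the 4 are not read as particular to this set. ITGA1, ITGA2 and ITGAV fell in Huh7 and rose in HLF, and ZYX rose in Huh7 and fell in HLF. The difference between the lines was -1.35 ± 0.14 and -1.59 ± 0.14 for ITGA1 in Inject-Embed and Mix-Embed culture, -2.19 ± 0.21 and -1.47 ± 0.20 for ITGA2, and -0.80 ± 0.08 and -0.82 ± 0.08 for ITGAV. It was 1.23 ± 0.11 and 0.93 ± 0.11 for ZYX. ZYX had 20.2 and 17.2 FPKM in Huh7 Inject-Embed and 13.0 and 15.1 FPKM in Huh7 Mix-Embed libraries, against 10.8 and 11.5 FPKM in Huh7 2D libraries. In HLF it had 30.4 and 28.1 FPKM in Inject-Embed and 24.8 and 29.0 FPKM in Mix-Embed libraries, against 40.4 and 40.9 FPKM in 2D libraries. The Huh7 Mix-Embed calls of ITGA2 and ZYX over 2D needed Mix-Embed replicate 2 (adjusted p = 0.0937 and 0.172 without it), and the differences between the lines did not.

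The 3 integrin chains with opposite responses have start sites whose upstream bases are shown here, because ITGA1 and ITGA2 moved together and are neighbours. The deposited coordinates put ITGA1 on chromosome 5 at 52787896 to 52959210 and ITGA2 at 52989326 to 53094779, both on the plus strand, with 30116 bases between them. The sequences are RefSeq bases before each gene start (build GRCh38.p14, plus strand), in lower case with each GGGCGG box in capitals.
ITGA1, chr5:52787666-52787895: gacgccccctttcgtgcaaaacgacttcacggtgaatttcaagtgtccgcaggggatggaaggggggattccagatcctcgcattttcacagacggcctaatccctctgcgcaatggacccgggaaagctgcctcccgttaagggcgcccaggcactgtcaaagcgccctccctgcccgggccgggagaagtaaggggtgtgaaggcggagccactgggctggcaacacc
ITGA2, chr5:52989102-52989325: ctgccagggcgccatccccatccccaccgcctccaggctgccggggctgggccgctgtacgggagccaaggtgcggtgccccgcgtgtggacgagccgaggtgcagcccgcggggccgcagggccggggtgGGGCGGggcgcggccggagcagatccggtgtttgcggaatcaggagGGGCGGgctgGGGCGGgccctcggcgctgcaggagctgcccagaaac
ITGAV, chr2:186589806-186590055: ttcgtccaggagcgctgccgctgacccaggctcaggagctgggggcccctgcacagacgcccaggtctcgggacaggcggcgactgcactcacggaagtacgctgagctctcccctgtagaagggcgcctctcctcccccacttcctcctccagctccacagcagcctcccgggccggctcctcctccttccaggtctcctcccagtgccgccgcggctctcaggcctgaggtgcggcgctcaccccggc

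On both strands, the SP/KLF box GGGCGG was searched, as were the AP-1 site TGANTCA and the TEAD site GGAATG. The printed ITGA2 bases hold the box at 3 places, and those of ITGA1 and ITGAV at 0. None of the 3 holds TGANTCA or GGAATG. Among 35116 windows of 250 bases upstream of RefSeq genes, 42.6% hold GGGCGG, 6.6% TGANTCA and 11.9% GGAATG. The GC content of the printed bases was 61.7% for ITGA1, 77.2% for ITGA2 and 70.8% for ITGAV. A match is a description of letters and says nothing of binding in these cells.

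The 2 embedding methods were compared directly. In Huh7 Inject-Embed over Mix-Embed 10 of 34 members were called, 3 higher (TLN1, ZYX, FERMT2) and 7 lower (ITGA1, ITGA2, ITGB4, PTK2, TNS1, TNS3, DDR1), against 22.9% of all genes. TNS1 differed most, at -1.79 ± 0.19 (adjusted p = 2.54e-10), followed by ITGA2 at -0.73 ± 0.16 and DDR1 at -0.71 ± 0.12. ITGA1, ITGB4, PTK2, TLN1 and TNS3 lost their call without at least 1 library, with highest adjusted p of 0.368 (without Huh7 Inject-Embed replicate 1), 0.167 (without Inject-Embed replicate 2), 0.269 (without Mix-Embed replicate 1), 0.263 (without Inject-Embed replicate 1) and 0.298 (without Inject-Embed replicate 2). The split was not stable. With library totals 7 members were higher and 4 lower, as the share of higher calls among all genes moved from 41.7% to 52.9%. A TMM fit of the compared groups alone gave 6 higher and 5 lower. The split also turned over when some HLF libraries, which lie outside this comparison, were left out.

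In HLF Inject-Embed over Mix-Embed 9 members were called, 3 higher (ITGA5, ITGB1, FERMT2) and 6 lower (ITGA1, ITGB8, PARVA, BCAR1, TNS3, DDR1), against 8.27% of all genes. ITGA1 (-0.56 ± 0.10), ITGB8 (-0.92 ± 0.17), TNS3 (-0.31 ± 0.05) and DDR1 (-0.45 ± 0.08) kept their call without any 1 library. The other 5 did not, with highest adjusted p of 0.306 for ITGA5 (without HLF Inject-Embed replicate 2), 0.182 for PARVA (same library), and 0.115 for ITGB1, 0.165 for FERMT2 and 0.461 for BCAR1 (each without HLF Mix-Embed replicate 2). ITGA1, TNS3 and DDR1 were called lower in Inject-Embed than in Mix-Embed culture in both lines. In Huh7 the ITGA1 call was lost without any 1 of 5 libraries and the TNS3 call without any 1 of 8. The share of all genes called alike in both lines was not counted. The difference between the lines in this comparison was called for 8 members, 4 higher and 4 lower, against 10.6% of all genes. TNS1 (-2.31 ± 0.30) and ITGB8 (1.32 ± 0.25) held without any 1 library. The other 6 did not. The highest adjusted p was 0.2 for ITGA2, 0.363 for ITGB5 and 0.14 for PTK2 without HLF Inject-Embed replicate 2, 0.0827 for TLN1 and 0.137 for BCAR1 without Huh7 Inject-Embed replicate 1, and 0.0969 for TLN2 without Huh7 Mix-Embed replicate 1. With library totals 7 members were higher and 2 lower, as the share of higher calls among all genes moved from 43.7% to 61.2%.

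Other genes of the same system were counted in lists written from general knowledge. Of 42 further focal adhesion genes tested, 6 rose and 14 fell in HLF Inject-Embed and 8 rose and 15 fell in HLF Mix-Embed culture over 2D. These are 47.6% and 54.8% of the list, against 17.9% and 29% of all genes. In Huh7, 9 rose and 13 fell in Inject-Embed (52.4%, against 29.9% of all genes), and 12 rose and 9 fell in Mix-Embed culture (50.0%, against 21.7%). Among all genes averaging at least 5 CPM the shares were higher, at 25.5%, 40%, 42.2% and 31.7% in the same order. This list and those below were not cut to such genes. FLNA (filamin A, an actin crosslinker) fell in all 4, by 1.26 and 1.09 in Huh7 and by 0.30 and 0.27 in HLF on the log2 scale. CSRP1, a partner of zyxin, rose in Huh7 (1.36 and 0.52) and fell in HLF (-0.27 and -0.24), the directions that ZYX took. The caveolin gene CAV1 fell in HLF by 0.63 and 0.96. The median over this list was -0.11 and -0.12 in HLF Inject-Embed and Mix-Embed culture, against 0.00 for all genes.

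Of 31 ligands of integrins and discoidin domain receptors, 11 rose and 7 fell in HLF Inject-Embed and 19 rose and 7 fell in HLF Mix-Embed culture. These are 58.1% and 83.9% of the ligands, against 17.9% and 29% of all genes. In Huh7, 3 rose and 13 fell in Inject-Embed (51.6%, against 29.9% of all genes), and 2 rose and 6 fell in Mix-Embed culture, a share of 25.8% that is near the 21.7% of all genes. The median log2 fold change of the ligands was 0.05 and 0.48 in HLF and -0.15 and -0.02 in Huh7, in Inject-Embed and Mix-Embed culture. TNC (tenascin-C) averaged 115 FPKM in HLF Inject-Embed and 101 FPKM in HLF Mix-Embed, against 50.8 FPKM in HLF 2D libraries, and had 0 counts in Huh7. THBS1 (thrombospondin-1) fell in Huh7 by 1.99 and 2.17 and COL1A2 by 1.70 and 0.73. NID1 (nidogen-1), a basement membrane linker, fell in all 4, by 0.88 and 0.41 in Huh7 and 0.43 and 0.26 in HLF. Of 18 other matrix receptors, 5 rose and 5 fell in HLF Inject-Embed, 6 rose and 3 fell in HLF Mix-Embed, 4 rose and 7 fell in Huh7 Inject-Embed, and 5 rose and 5 fell in Huh7 Mix-Embed culture. These are 55.6%, 50.0%, 61.1% and 55.6% of that list, against 17.9%, 29%, 29.9% and 21.7% of all genes. CD44, the hyaluronan receptor, rose in HLF by 0.69 and 0.71.

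Of 5 leukocyte or platelet integrin chains tested, 0 were called in HLF Inject-Embed culture (2 at an unadjusted p under 0.05), and 1 fell in HLF Mix-Embed culture. In Huh7, 2 fell in Inject-Embed, and 1 rose and 1 fell in Mix-Embed culture. In that order these are 0%, 20%, 40% and 40% of the list, against 17.9%, 29%, 29.9% and 21.7% of all genes. With 5 genes the counts are too few to set apart from those shares. ITGAL, the alpha chain of a leukocyte integrin, averaged 2.11 FPKM in Huh7 Inject-Embed, 3.04 FPKM in Huh7 Mix-Embed and 3.18 FPKM in Huh7 2D libraries, against 0.0529 to 0.0709 FPKM in HLF. ITGAE averaged 1.82 to 2.92 FPKM over the 6 groups.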

How the data were processed

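Poly-A RNA was sequenced in 12 libraries of 6 groups. Per the submitters' processing notes, FastQC, Trimmomatic, STAR 2.7.9a, featureCounts and the GRCh38 build were used. Strandedness of the counting and the gene annotation used are not stated in the labels. The authors deposited whole-number read counts per gene. They also deposited FPKM values, and all 167453 of these with at least 20 counts matched the counts, lengths and totals within a relative 1e-06.

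Counts were tested with edgeR 4.0.16 in R 4.3.3 (quasi-likelihood test, TMM scaling, filterByExpr with a minimum count of 10, one mean per group over all 12 libraries, residual df 6), with Benjamini-Hochberg adjustment over 19342 genes. The median prior df was 36.3. Each SE is the log2 fold change over the root of its F. Culture effects, line effects and the difference between lines are contrasts of that fit. The procedure was run on simulated data, with 50 genes changed at each size. It called 40% of 1.25-fold and 86% of 2-fold changes in Huh7 Inject-Embed over 2D. For the difference between the lines it called 18% and 78%. Of its calls, 5.06% and 2.5% were false in these 2 comparisons. Far fewer genes changed in the simulation than were called in these data. A total of 3 counts equals 0.178 to 0.255 CPM, and count intervals cover counting error only. Replicates differed by more than sampling noise (2.15 to 3.84 chi-square per gene), so none was merged. Alternatives were RLE scaling, library totals, no filter, DESeq2 1.42.0, limma 3.58.1 on log2(FPKM + 1) and log2(FPKM + 0.1), the compared groups alone, a replicate block and leaving out each library.

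Values in every library are given for members called with a log2 fold change of at least 1 in a culture comparison and at least 5 CPM, and for ITGB1, ITGAV, TLN1, VCL and PTK2. Of other lists, up to 4 called genes with the smallest adjusted p were named. One gene that this rule names is not reported here. ZYX, shown in every library for its opposite directions, was chosen after its values were seen, as was the background of genes averaging at least 5 CPM. The members and lists were chosen with earlier results of these data known. Symbols matched 58207 of 58735 gene IDs. Exon overlap was taken from GENCODE, and promoter bases from RefSeq. Figures were drawn with matplotlib 3.10.9.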

Additional observations from a re-analysis of the deposited data

Results flagged for a closer look

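The log2 fold change between cultures differed between the lines by a test of the difference itself (edgeR's quasi-likelihood interaction contrast, adjusted over all genes tested) in 46 values of the members. Each value is the Huh7 fold change minus the HLF fold change. No explanation was tested.

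For Inject-Embed over 2D culture, 19 members differed. Among integrin chains, the difference was -1.35 for ITGA1, -2.19 for ITGA2, 1.26 for ITGA3, -2.84 for ITGA4, -1.09 for ITGA5, -0.36 for ITGA6, -0.80 for ITGAV, -0.49 for ITGB1, -0.73 for ITGB4, -0.43 for ITGB5 and -1.955 for ITGB8. Among adapters and kinases, the difference was 0.42 for TLN1, 0.88 for TLN2, 0.43 for PXN, 1.23 for ZYX, 0.25 for LIMS1 and 0.56 for TNS3. Among collagen receptor kinases, the difference was -0.92 for DDR1 and -0.88 for DDR2.

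For Mix-Embed over 2D culture, 19 members differed. Among integrin chains, the difference was -1.59 for ITGA1, -1.47 for ITGA2, 1.05 for ITGA3, -1.06 for ITGA5, -0.43 for ITGA6, -0.82 for ITGAV, -0.33 for ITGB1 and -3.28 for ITGB8. Among adapters and kinases, the difference was 0.19 for TLN1, 0.44 for TLN2, 0.38 for PXN, 0.26 for PTK2, 0.93 for ZYX, -0.56 for PARVA, 0.36 for LIMS1, 1.67 for TNS1 and 0.39 for TNS3. Among collagen receptor kinases, the difference was -0.66 for DDR1 and -1.11 for DDR2.

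For Inject-Embed over Mix-Embed culture, 8 members differed. Among integrin chains, the difference was -0.72 for ITGA2, -0.26 for ITGB5 and 1.32 for ITGB8. Among adapters and kinases, the difference was 0.23 for TLN1, 0.44 for TLN2, -0.27 for PTK2, 0.31 for BCAR1 and -2.31 for TNS1.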

How the results depend on the processing

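Of 408 gene values, 232 were called, and 162 of them were called under every alternative that gave a value. Among the 232 called values only those of TLN1 and LIMS1 changed sign, in Huh7 Mix-Embed over HLF Mix-Embed. Sign changes of values that were not called were not counted. TLN1 was at 0.15 and turned to -0.0746 with library totals alone, -0.0721 with limma on log2(FPKM + 1) and -0.0736 with limma on log2(FPKM + 0.1). LIMS1 was at 0.16 and turned to -0.0652, -0.0604 and -0.0650 in the same settings. The cause was not tested.

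With limma on log2(FPKM + 0.1), 14 members (22 as reported) were called in HLF Inject-Embed over 2D, and 1 (9 as reported) in HLF Inject-Embed over Mix-Embed, where log2(FPKM + 1) gave 4. The line difference in Inject-Embed over Mix-Embed gave 4 under each pseudocount (8 as reported). The cause was not tested.

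Leaving out 1 library gave 12 to 21 calls in Huh7 Inject-Embed over 2D, 10 to 16 in Huh7 Mix-Embed over 2D, 5 to 12 in Huh7 Inject-Embed over Mix-Embed, and 5 to 9 in HLF Inject-Embed over Mix-Embed. It gave 4 to 10 for the line difference in Inject-Embed over Mix-Embed. A lone library of a group was assumed to vary like the other groups.

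The replicate numbers did not pair the samples: over 15 pairs of groups, deviations of same-numbered libraries correlated at -0.02 to 0.02, and 0 passed 0.1. The replicate block changed 1 count, the line difference in Inject-Embed over 2D, to 20 against 19, with BCAR1 newly called, and ended no call. Depth limits members with few counts, such as ITGA8, ITGA10, ITGA11, ITGB2 and, in Huh7, ITGB6.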
